A study of Mus musculus with 10 samples.

Results

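The genes described here are the solute carrier genes, whose symbols start with Slc and a family number, as counted in ribosome footprints of mouse embryonic stem cells. The count table held 11011 genes. Of these, 210 had such a symbol, 13 well-known carriers of glucose, lactate and amino acids were set aside, and the remaining 197 are the members. The choice used symbols only, not measured values. The filter on low counts kept 196 of the 197. It removed Slc25a27, a brain-type mitochondrial carrier with 0 to 55 counts per library.

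Ribosome profiling sequences the stretches of mRNA that ribosomes shield from a nuclease, so a footprint count reflects both how much mRNA there is and how heavily it is translated. The cell line was E14, from a 129/Ola background, grown in serum and LIF on gelatine, and all 5 groups of 2 libraries share line and culture. The groups were WT, Dgcr8 knockout, Drosha knockout, Dicer knockout, and a double knockout of Ago1 and Ago2, called the Ago knockout below although, of the pair, Ago2 footprints fell and Ago1 footprints did not. The labels do not say how the knockouts were made, whether each is 1 clone, or whether the 2 libraries of a group came from separate cultures, so the p-values speak only of how far these libraries scatter, which may be technical.

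Solute carriers are membrane proteins that move sugars, amino acids, nucleosides, metal ions, vitamins and lipids across membranes, either down a gradient or coupled to sodium, protons or a second solute. One large family, Slc25, sits in the inner mitochondrial membrane, Slc35 carries nucleotide sugars into the Golgi and endoplasmic reticulum, and most other families work at the cell surface. Drosha and Dgcr8 cut primary miRNA transcripts, Dicer cuts the precursors, and Ago proteins hold the mature miRNAs, which lower the output of mRNAs with a match to the miRNA seed in the 3' UTR.

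Total counts ran from 1754710 in the second Dicer library to 80850950 in the first Dgcr8 library. Levels are given in CPM, footprint counts relative to the scaled size of the library. Drosha fell to 24.3 and 34.5 CPM in its knockout from 177 and 178 CPM in WT, Dicer1 to 15.8 and 22.1 from 122 and 124, and Ago2 to 14.9 and 6.61 from 81.9 in both WT libraries. Dgcr8 went against its label, at 145 and 146 CPM in the libraries labelled Dgcr8 knockout and 32.7 and 33.1 in WT, and Ago1 stood at 27.02 and 10.7 CPM in the Ago knockout against 14.7 and 14.3 in WT and did not fall (log2 0.37, adjusted p = 0.67). The 10 stem cell markers summed to between 4516 and 5916 CPM in all libraries. The 13 of 17 endoderm markers in the table summed to between 10608 and 11642 CPM in WT, 1754 to 6949.6 for the Dgcr8 label, 1831 to 2218 for Drosha, 1718 to 2383 for Dicer and 1515 to 2539 for Ago, and Gata6 was at 0 in the Dicer knockout. The 5 of 10 trophectoderm markers in the table summed to 149.5 to 182 CPM in WT, 157 to 228 for the Dgcr8 label, 375 to 377 in Drosha, 618 to 857 in Dicer and 184 to 205 in Ago. The 4 of 8 fibroblast markers summed to 220 to 248 CPM in WT and lower in every other group, at 61.4 to 173 for the Dgcr8 label, 72.95 to 106 in Drosha, 41.4 to 85.4 in Dicer and 85.8 to 158 in Ago. The 3 of 5 neural markers summed to 77.4 to 79.8 CPM in WT, 64.1 to 127 for the Dgcr8 label, 81.8 to 114 in Drosha, 99.7 to 103 in Dicer and 102 to 139 in Ago. The part of these markers' cells in any change of a solute carrier gene was not tested, and in bulk libraries fewer cells of a type and less RNA per cell cannot be told apart.

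In WT, levels of different members were compared per kb of coding sequence. The median member stood at 16.7 CPM per kb, against 20.7 for all genes. The amino acid carrier Slc38a4 had the highest level, 944 ± 273 CPM per kb (SD, n = 2 libraries), followed by the equilibrative nucleoside transporter Slc29a1 at 782 ± 182. Their library values overlapped, at 1137 and 752 for Slc38a4 and 911 and 653 for Slc29a1, so the order of the first and second places lies within the spread. The mitochondrial phosphate carrier Slc25a3 stood at 410 ± 29.5 CPM per kb, and Slc25a4, which exchanges ADP and ATP across the inner mitochondrial membrane, at 304 ± 11.9. Next came the glutamine carrier Slc38a1 (262 ± 93.5), the taurine transporter Slc6a6 (234 ± 42.99) and the copper importer Slc31a1 (221 ± 11.9).

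The remaining places among the 12 highest members went to Slc7a6, Slc25a5, the thiamine transporter Slc19a2, Slc9a3r1 and Slc39a10, at 151 to 130 CPM per kb. Slc9a3r1 carries the prefix but encodes a scaffold protein rather than a transporter. Slc25a4 and Slc25a5 are close paralogs, and how the counting treated reads that match both is not given in the sources used here. There were 19 members over 100 CPM per kb and 5 under 1. Divided by the union of exons instead of the coding sequence, 9 of the 12 highest members were the same.

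**Figure D1:**
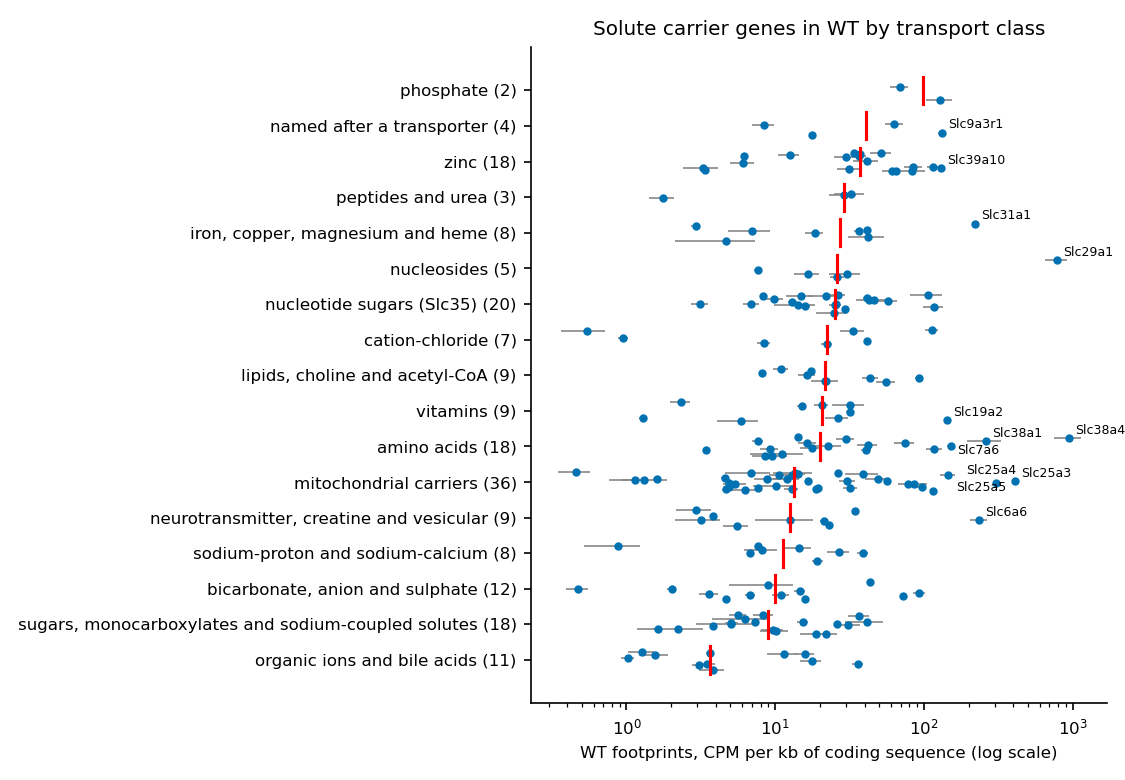
Footprints of each of the 197 solute carrier genes in WT, in CPM per kb of coding sequence on a log axis, with 1 row per transport class and the number of genes in brackets. Points are means of the 2 WT libraries, grey lines join the library values, red bars are class medians, and the 12 highest members are named, with Slc38a4 (944) and Slc29a1 (782) farthest to the right.

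The first question of the design is which footprints differ between WT and each knockout. In the comparisons below, a gene rose or fell when its adjusted p was under 0.05 in edgeR's quasi-likelihood test with Benjamini-Hochberg adjustment over all 10978 genes tested. All 4 knockouts are compared with the same 2 WT libraries, so the comparisons are not independent of each other.

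In the libraries labelled Dgcr8 knockout, 0 of 196 members passed in edgeR, where 0.0729% of all genes did. At an unadjusted p under 0.05 there were 19 members, where 9.81% of all genes passed. DESeq2 called 3 members, Slc25a20, Slc9a5 and Slc5a1 (1.46% of all genes), and limma-voom 0 (0.137% of all genes). The 4 members with the smallest p were the sodium-proton exchanger Slc9a5 (log2 -1.60, adjusted p = 0.26), the carnitine carrier Slc25a20 (log2 1.28, adjusted p = 0.26), the sodium-glucose cotransporter Slc5a1 (log2 2.27, adjusted p = 0.32) and Slc22a18 (log2 -1.53, adjusted p = 0.33). The median log2 fold change was -0.09 over the members and 0.02 over all genes.

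In the Drosha knockout, 3 members rose and 1 fell. Slc25a20, which brings fatty acids bound to carnitine into mitochondria, Slc5a1 and the mitochondrial carrier Slc25a40 rose, and the zinc importer Slc39a10 fell. Of all genes, 2.48% rose and 0.966% fell, and the called share was 2.04% of members against 3.44% of all genes. The median was -0.05 over the members and -0.01 over all genes. DESeq2 called 18 members (8.85% of all genes) and limma-voom 2 (1.01% of all genes). Without the first or the second WT library, 0 of the 4 calls were made. Slc5a1 and Slc25a40 also lost their calls without the first Drosha library and with limma-voom, Slc39a10 without the second Drosha library, and Slc25a40 without the second Dicer library.

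In the Dicer knockout, 14 members rose and 8 fell, and 4 of the 9 carriers of neurotransmitters, creatine and vesicular cargo were among the risers. Among the 14 were Slc25a20, Slc25a40 and Slc25a43 of the mitochondrial carriers, the nucleoside transporter Slc28a1, the anion exchanger Slc4a9, Slc5a1, the monocarboxylate carrier Slc16a9, Slc6a8, Slc6a15, Slc17a9, the vitamin C transporter Slc23a1, Slc35b4 and Slc9a7. The 8 that fell were the sodium exchangers Slc9a5, Slc9b2 and Slc8a2, Slc29a1, the folate carrier Slc19a1, Slc39a10, the citrate transporter Slc13a5 and Slc7a6. Slc16a9, Slc17a9, Slc23a1, Slc25a43 and Slc9a7 are named outside the naming rule, after their values were seen. Of all genes, 7.35% rose and 3.76% fell. The called share was 11.2% of members against 11.1% of all genes, so the number of calls does not set solute carriers apart. DESeq2 called 37 members (17.1% of all genes) and limma-voom 17 (9.52% of all genes). The median was 0.02 over the members and -0.00 over all genes.

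Risers of the Dicer knockout had a median of 7.11 CPM in WT, ranging from 1.17 to 65.8 CPM, and 8 of 14 were under 10 CPM. Fallers had a median of 104 CPM, ranging from 13.4 to 1079 CPM, and 0 of 8 were under 10 CPM. Members that did not pass had a median of 26.3 CPM. The ranges overlapped, and the levels were not tested against each other, since the WT level is part of the fold change that chose both groups.

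Most Dicer calls were lost whichever WT or Dicer library was left out, which leaves 1 library in that group. The members named with a call kept their direction, and why calls were lost was not tested. Without WT library 1, 5 of the 22 remained, namely Slc25a20, Slc28a1, Slc9a5, Slc4a9 and Slc5a1, and without the second WT library 1 remained, Slc29a1. Without the first Dicer library Slc25a20, Slc28a1 and Slc5a1 remained, and without the second Dicer library 6 did, the 5 named first and Slc25a40. Limma-voom called 16 of the 22, all but Slc19a1, Slc8a2, Slc9b2, Slc13a5, Slc7a6 and Slc23a1. Slc13a5 also lost its call without the first Drosha library, and Slc7a6 without either Ago library.

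In the Ago knockout, 4 members rose and 1 fell. The leucine-preferring amino acid transporter Slc43a1, Slc27a2, which takes up and activates very long fatty acids, Slc25a20 and Slc28a1 rose, and Slc13a5 fell. Of all genes, 1.98% rose and 0.902% fell, and the called share was 2.55% of members against 2.88% of all genes. DESeq2 called 20 members (8.49% of all genes) and limma-voom 14 (8.58% of all genes). The median was 0.12 over the members and 0.04 over all genes. Leaving out either WT library ended all 5 calls, leaving out the first Ago library ended all but that of Slc43a1, and leaving out the second ended that of Slc13a5.

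In the mean of the 4 knockouts, 4 members were higher than in WT and 7 were lower. Slc25a20, Slc28a1, Slc5a1 and Slc43a1 rose, and Slc9a5, Slc13a5, Slc39a10, Slc29a1, Slc7a6, Slc19a1 and Slc7a4 fell. Of all genes 3.81% rose and 3.26% fell, and the called share was 5.61% of members against 7.07% of all genes. DESeq2 called 30 members (13.2% of all genes) and limma-voom 19 (8.78% of all genes). The call of Slc25a20 remained when WT library 1 was left out, and 0 calls did when WT library 2 was. Slc7a6 also lost its call without either Dicer library, Slc43a1 without the first Drosha, Dicer or Ago library, and Slc19a1 without the second Dgcr8-labelled, first Drosha or either Dicer library. Slc7a4 lost it without the second Dgcr8-labelled library or any Drosha or Dicer library, and also under a stricter filter on low counts. Without both Dgcr8-labelled libraries, an alternative chosen after seeing the data, 23 members passed for the mean of the other knockouts. The share of all genes that passed under that alternative is not given here.

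**Figure D2:**
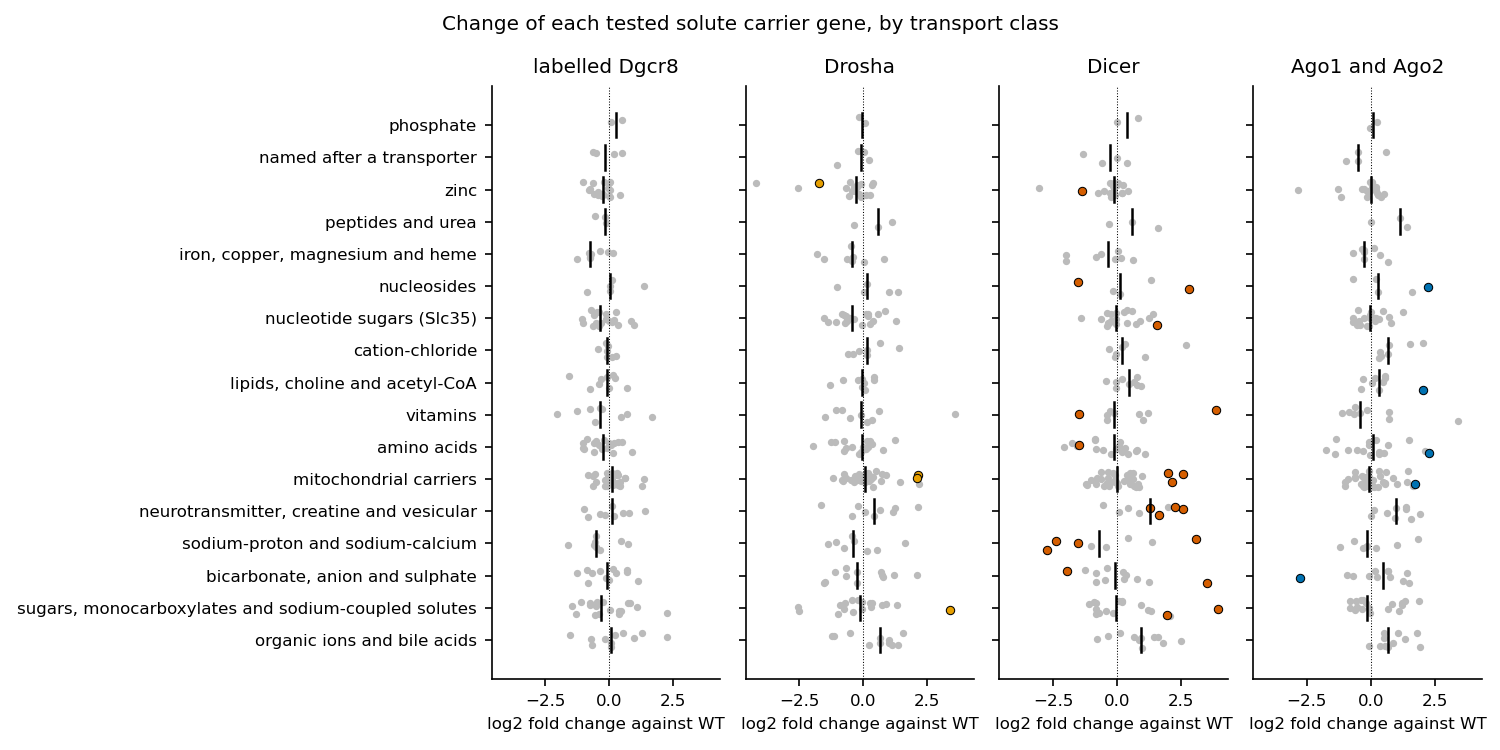
Log2 fold change against WT of the 196 tested solute carrier genes, 1 panel per knockout and 1 row per transport class. Coloured points passed the test, grey points did not, and black bars are class medians. The Dicer panel holds 22 coloured points, of which 4 lie in the row of neurotransmitter, creatine and vesicular carriers, the Dgcr8 panel holds 0, and the Drosha and Ago panels hold 4 and 5.

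Matches to the seeds of 2 miRNA families were read from the 3' UTRs of the members, since mature miRNAs are what the targeted proteins make or hold. The miR-290 and miR-302 family is abundant in embryonic stem cells, and let-7 is the family that accumulates when such cells differentiate. The mature sequences below, from RefSeq on GRCm38.p6, have the seed, bases 2 to 8, in capitals.
miR-294-3p: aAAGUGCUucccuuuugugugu
miR-302d-3p: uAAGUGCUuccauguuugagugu
let-7a-5p: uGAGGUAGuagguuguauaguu
let-7g-5p: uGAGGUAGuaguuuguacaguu
The miRNAs of each family share 1 seed.

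A match is the reverse complement of the seed, AGCACTT for miR-290 and miR-302 and CTACCTC for let-7, on the transcript strand of the 3' UTR of the GENCODE M21 transcript with the longest coding sequence. The miR-290 and miR-302 match was found in 30 of the 193 members with an annotated 3' UTR (15.5%), against 1696 of 10787 tested genes (15.7%). The let-7 match was found in 25 of 193 members (12.95%) and 1019 of the 10787 genes (9.45%), and members had longer 3' UTRs, with a median of 1194 bases against 954. For miR-290 and miR-302 the 2 shares are nearly equal. A match describes the sequence and does not show that a miRNA binds there.

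The 4 members with a miR-290 and miR-302 match that passed in the Dicer knockout all rose, and their sites are shown with the match in capitals. They lie on GRCm38 at chr10:103418636-103418642 (Slc6a15), chr5:8454565-8454571 (Slc25a40), chr6:34157972-34157978 (Slc35b4) and chr10:70285561-70285567 (Slc16a9), Slc35b4 on the minus strand and the others on the plus strand.
Slc6a15: ttaaaaaaacaAGCACTTtggcatattt
Slc25a40: ataaagcaaaaAGCACTTtatcacgttt
Slc35b4: ctgcacacttaAGCACTTtgcagcacag
Slc16a9: gggacacctgaAGCACTTtattacacat
The 30 members with a match had a median log2 fold change of 0.23 in the Dicer knockout against 0.00 for the 163 without, and over all genes the medians were 0.21 with a match and -0.04 without. Of the members with a match 13.3% were called in the Dicer knockout, against 10.4% of members without and 13.7% of all genes with a match. In the Dgcr8-labelled libraries, the Drosha knockout and the Ago knockout, the medians of members with a match were -0.18, -0.07 and -0.04, below those of members without (-0.07, -0.03 and 0.16). Over all genes the medians ran the other way, at 0.06, 0.13 and 0.13 with a match and 0.01, -0.03 and 0.02 without.

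**Figure D3:**
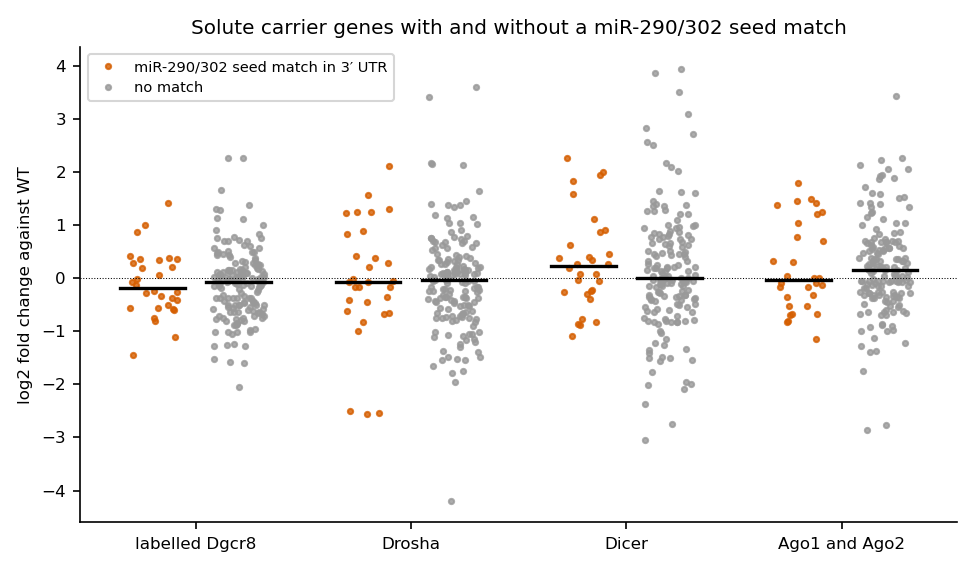
Log2 fold change against WT of solute carrier genes with (orange) and without (grey) a miR-290 and miR-302 seed match in the 3' UTR, in each knockout. Points are genes and black bars medians, which in the Dicer knockout were 0.23 over 30 genes with a match and 0.00 over 163 without.

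Of the members with a let-7 match, 5 passed in the Dicer knockout, 4 higher and 1 lower. The sites of 4 of them lie on GRCm38 at chr7:81169762-81169768 (Slc28a1), chrX:73681364-73681370 (Slc6a8), chr2:180742134-180742140 (Slc17a9) and chr7:16159789-16159795 (Slc8a2), all on the plus strand.
Slc28a1: ctccccatgtcCTACCTCtccaagtgtg
Slc6a8: gcttccaggccCTACCTCctctccttct
Slc17a9: gccttgtttttCTACCTCccgcacttat
Slc8a2: ctcaccctccaCTACCTCtgagagccta
Slc8a2 was the member that fell. The 25 members with a match had a median of 0.48 in the Dicer knockout and the 168 without had -0.02, while over all genes the medians were 0.03 and -0.01. The members' medians with and without this match were 0.16 and -0.13 in the Dgcr8-labelled libraries, 0.16 and -0.07 in Drosha, and 0.32 and 0.03 in Ago. Over all genes the medians with a match were slightly below those without, at -0.02 and 0.02, -0.02 and -0.01, and 0.02 and 0.04 in the same order. Of the members with a match 5 were called in the Dicer knockout (20%), against 9.52% of those without and 12.8% of all genes with a match.

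Among the 35 tested mitochondrial carriers, Slc25a20 stood apart from WT in the most comparisons. The gene (ENSMUSG00000032602) lies on chromosome 9 from 108662088 to 108684641, and its protein exchanges acylcarnitines for carnitine across the inner membrane, the step that feeds long fatty acids to oxidation. Slc25a20 was at 52.2 and 36.5 CPM in WT, 81.8 and 134 under the Dgcr8 label and, among the other knockouts, 193 and 204 for Drosha, 203 and 195 for Dicer and 174 and 117 for Ago. Every knockout library was above both WT libraries, which the naming rule asked for. Slc25a20 rose in the knockouts of Drosha (log2 2.16, SE 0.33, adjusted p = 0.012), Dicer (log2 2.17, SE 0.33, adjusted p = 0.0032) and Ago (log2 1.71, SE 0.33, adjusted p = 0.021). It did not pass in edgeR under the Dgcr8 label (log2 1.28, SE 0.33, adjusted p = 0.26), while DESeq2 called it there. In the mean of the 4 knockouts it rose over WT as well (log2 1.83, SE 0.29, adjusted p = 0.0064).

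Slc25a40, a carrier linked to glutathione import into mitochondria, was at 7.56 and 8.05 CPM in WT, 7.62 and 7.17 under the Dgcr8 label and, among the other knockouts, 45.4 and 22.3 for Drosha, 35.4 and 27.03 for Dicer and 21.6 and 10.6 for Ago. The Drosha, Dicer and Ago libraries lay above WT, and the Dgcr8-labelled libraries overlapped WT. It rose in the Drosha knockout (log2 2.11, SE 0.45, adjusted p = 0.031) and in the Dicer knockout (log2 2.01, SE 0.45, adjusted p = 0.016), and stood at log2 1.04 in the Ago knockout (adjusted p = 0.21). Slc25a43, a carrier of unknown cargo, was near the bottom of the range with 1.38 and 0.954 CPM in WT and 8.50 and 4.96 in the Dicer knockout (log2 2.58, adjusted p = 0.026). In Drosha it stood at log2 2.20 without passing in edgeR (adjusted p = 0.096), and DESeq2 called it there. Both DESeq2 and limma-voom called it for the mean of the 4 knockouts. The abundant carriers did not pass in edgeR in any knockout. Slc25a3 was at 463 and 418 CPM in WT and 423 and 492 in the Dicer knockout (log2 0.05). Slc25a4 was lower in the Dicer (log2 -1.15, adjusted p = 0.081) and Ago (log2 -0.996, adjusted p = 0.18) knockouts without passing, and DESeq2 called it in Dicer. The class median in the Dicer knockout was 0.01.

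Of the 5 nucleoside transporters, 1 rose and 1 fell in the Dicer knockout, where 7.35% of all genes rose and 3.76% fell. Slc28a1 (ENSMUSG00000025726, chromosome 7 from 81114799 to 81170416) pulls pyrimidine nucleosides into the cell with sodium, and Slc29a1 (ENSMUSG00000023942, chromosome 17 from 45585200 to 45599606) lets nucleosides pass down their gradient. Slc28a1 was at 72.8 and 44.7 CPM in WT, 92.03 and 216 under the Dgcr8 label and, among the other knockouts, 186 and 119 for Drosha, 483 and 350.3 for Dicer and 359.7 and 193 for Ago. Every knockout library was above both WT libraries, which the naming rule asked for. The Dicer libraries were the highest group apart from an overlap with the first Ago library. It rose in the Dicer knockout (log2 2.83, SE 0.48, adjusted p = 0.0047) and the Ago knockout (log2 2.23, SE 0.47, adjusted p = 0.028). It did not pass in edgeR in the Drosha knockout (log2 1.38, adjusted p = 0.12) or under the Dgcr8 label (log2 1.39, adjusted p = 0.35). DESeq2 called it in Drosha.

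Slc29a1 was at 1257 and 901 CPM in WT, 612 and 564 under the Dgcr8 label and, among the other knockouts, 561 and 514 for Drosha, 397 and 344 for Dicer and 781 and 549 for Ago. All 8 knockout libraries lay below both WT libraries, which the naming rule asked for, with the Dicer libraries lowest. The gene fell in the Dicer knockout (log2 -1.54, SE 0.30, adjusted p = 0.0082) and in the mean of the 4 knockouts (log2 -1.03, SE 0.21, adjusted p = 0.017). Its values in the Drosha (log2 -1.01, adjusted p = 0.085) and Ago (log2 -0.70, adjusted p = 0.21) knockouts did not pass in edgeR, while DESeq2 called it in Drosha. In absolute terms its fall in the Dicer knockout was the largest shift in CPM among the named members that passed there, from 1079 ± 252 to 371 ± 37.4 CPM (SD, n = 2). An antisense gene, Gm17080, covers 6.86% of the exon bases of Slc29a1, and its reads cannot be told apart here. The other 3 nucleoside transporters, Slc29a2, Slc29a3 and Slc29a4, did not pass in edgeR in any comparison with WT. Slc29a3, a transporter of inner cell membranes, stood at log2 1.36, adjusted p = 0.075 in the Dicer knockout and log2 1.61, adjusted p = 0.081 in the Ago knockout, and was called by DESeq2 in both and by limma-voom in Ago.

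Slc5a1 (chromosome 5 from 33104219 to 33162870) takes glucose and galactose up against their gradient with sodium. It was at 6.55 and 2.36 CPM in WT, 27.3 and 13.7 under the Dgcr8 label and, among the other knockouts, 61.2 and 31.5 for Drosha, 82.1 and 50.8 for Dicer and 25.7 and 6.67 for Ago. Every knockout library was above both WT libraries, which the naming rule asked for, although the second Ago library was only just above the first WT library. It rose in the Drosha knockout (log2 3.41, SE 0.71, adjusted p = 0.029) and the Dicer knockout (log2 3.95, SE 0.72, adjusted p = 0.0062), which was the largest log2 change among the members called there. In the Ago knockout it stood at log2 1.89 (adjusted p = 0.15), and DESeq2 called it there and under the Dgcr8 label. WT held 71 and 57 reads of the gene, and its 2 WT libraries lay far apart. Slc16a9, a monocarboxylate carrier family member that moves carnitine, was at 2.30 and 2.70 CPM in WT and 9.49 and 9.93 in the Dicer knockout (log2 1.95, adjusted p = 0.039). On the opposite strand, Gm7097 covers 12.7% of its exon bases and Gm9877 10.8%. The other 16 tested members of the sugar and monocarboxylate class did not pass in edgeR in any knockout, while DESeq2 called 3 of them in the Dicer knockout, Slc16a6, Slc37a1 and Slc5a11, and 1 in Drosha, Slc2a4. DESeq2 called 17.1% of all genes in Dicer and 8.85% in Drosha.

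Of the 9 carriers of neurotransmitters, creatine and vesicular cargo, 4 rose in the Dicer knockout, where 7.35% of all genes rose. Of the 3 neural markers 1 rose there as well, with a median log2 change of 0.14 and summed levels of 99.7 to 103 CPM against 77.4 to 79.8 in WT. In the same comparison 4 of 5 trophectoderm markers rose, and 10 of 13 endoderm, 3 of 4 fibroblast and 2 of 10 stem cell markers fell. The part of these markers' cells in the class was not tested. The log2 change was above 0 in 8 of the 9 carriers, with a class median of 1.29, where it was above 0 in 101 of all 196 members. The creatine transporter Slc6a8 was at 65.9 and 65.7 CPM in WT, 53.4 and 48.6 under the Dgcr8 label and, among the other knockouts, 84.4 and 53.3 for Drosha, 184 and 137 for Dicer and 92.3 and 50.1 for Ago. The 2 Dicer libraries stood above all other libraries, while the Dgcr8-labelled libraries lay below WT and the Drosha and Ago libraries on both sides of it. Slc6a8 rose in the Dicer knockout (log2 1.29, SE 0.35, adjusted p = 0.034).

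Slc6a15, which carries branched-chain amino acids and proline, was at 8.11 and 4.73 CPM in WT and 34.01 and 26.5 in the Dicer knockout, where it rose (log2 2.26, SE 0.56, adjusted p = 0.025). Slc17a9, the vesicular nucleotide transporter that loads ATP into vesicles, was at 31.1 and 30.6 CPM in WT and 119 and 72.8 in the Dicer knockout (log2 1.65, SE 0.48, adjusted p = 0.049). Both WT libraries were below both Dicer libraries for each gene. The most abundant member of the class, the taurine transporter Slc6a6, was at 493 and 379 CPM in WT and 787 and 405 in the Dicer knockout and did not pass (log2 0.45, adjusted p = 0.53). The vesicular glutamate transporter Slc17a7 was the member of the class on the other side of 0, at log2 -0.55 (adjusted p = 0.51). In the other knockouts 0 of the 9 passed in edgeR, and class medians were 0.13 in the Dgcr8-labelled libraries, 0.42 in Drosha and 1.00 in Ago. At an unadjusted p under 0.05 there were 1, 3 and 4 members in the same order, DESeq2 called 0, 1 and 2, and limma-voom 0, 0 and 1. Of all genes 9.81%, 19.2% and 19.7% had an unadjusted p under 0.05, DESeq2 called 1.46%, 8.85% and 8.49%, and limma-voom 0.137%, 1.01% and 8.58%.

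Sodium exchangers went both ways in the Dicer knockout, where 3 of 8 fell, 1 rose and the class median was -0.72. Of all genes, 3.76% fell and 7.35% rose there. Slc9a5, a sodium-proton exchanger best known from neurons, was at 19.8 and 21.7 CPM in WT, 7.07 and 6.57 under the Dgcr8 label and, among the other knockouts, 6.86 and 9.17 for Drosha, 2.57 and 3.86 for Dicer and 10.05 and 7.85 for Ago. All 8 knockout libraries were below both WT libraries, which the naming rule asked for, and the Dicer libraries were the lowest. Slc9a5 fell in the Dicer knockout (log2 -2.76, SE 0.47, adjusted p = 0.0047) and in the mean of the 4 knockouts (log2 -1.74, SE 0.29, adjusted p = 0.0076). Values for Drosha (log2 -1.37, adjusted p = 0.11) and for Ago (log2 -1.22, adjusted p = 0.12) did not pass in edgeR. DESeq2 called Slc9a5 in Ago and under the Dgcr8 label, and limma-voom in Ago.

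Slc9b2, a sodium-proton antiporter of endosomes and mitochondria, was at 16.8 and 10.1 CPM in WT and 3.16 and 1.65 in the Dicer knockout (log2 -2.37, SE 0.65, adjusted p = 0.039). The sodium-calcium exchanger Slc8a2 was at 18.5 and 18.9 CPM in WT and 6.92 and 6.07 in the Dicer knockout (log2 -1.51, SE 0.39, adjusted p = 0.028). For both genes the Dicer libraries lay below all other libraries. The member that rose was Slc9a7, an exchanger of the Golgi network, from 2.67 and 1.12 CPM in WT to 17.6 and 13.8 in the Dicer knockout (log2 3.09, SE 0.86, adjusted p = 0.039), on 29 and 27 reads in WT.

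Of the 18 zinc transporters, Slc39a10 (chromosome 1 from 46807544 to 46892852), an importer at the cell surface and the most abundant of its class in WT, was the only one called in edgeR. It was at 337 and 315 CPM in WT, 209 and 175 under the Dgcr8 label and, among the other knockouts, 133 and 62.03 for Drosha, 151 and 104 for Dicer and 156 and 112 for Ago. All 8 knockout libraries lay below both WT libraries, which the naming rule asked for. It fell in the Drosha knockout (log2 -1.74, SE 0.37, adjusted p = 0.030) and in the Dicer knockout (log2 -1.35, SE 0.36, adjusted p = 0.035), and it stood at log2 -1.28 in the Ago knockout (adjusted p = 0.084). DESeq2 and limma-voom called it in the Ago knockout. In the mean of the 4 knockouts it fell (log2 -1.28, SE 0.26, adjusted p = 0.016). The class median in the Dicer knockout was -0.11. Of the 8 carriers of iron, copper, magnesium and heme, 0 passed in any knockout in edgeR, DESeq2 or limma-voom, with 1, 1, 2 and 0 at an unadjusted p under 0.05 for Dgcr8, Drosha, Dicer and Ago. The copper importer Slc31a1 was at 135 and 125 CPM in WT and 105 and 65.1 in the Dicer knockout.

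Of the 12 anion carriers, 1 rose and 1 fell in the Dicer knockout, where 7.35% of all genes rose and 3.76% fell. Slc13a5 (chromosome 11 from 72241989 to 72267222), which takes citrate into the cell with sodium, was at 174 and 145 CPM in WT, 109 and 24.5 under the Dgcr8 label and, among the other knockouts, 53.8 and 55.9 for Drosha, 49.4 and 32 for Dicer and 19.03 and 27.97 for Ago. All knockout libraries were below both WT libraries, which the naming rule asked for. The lowest was the first Ago library, and the 2 Dgcr8-labelled libraries lay far apart. Slc13a5 fell in the Dicer knockout (log2 -1.95, SE 0.54, adjusted p = 0.040), in the Ago knockout (log2 -2.76, SE 0.55, adjusted p = 0.025) and in the mean of the 4 knockouts (log2 -1.87, SE 0.37, adjusted p = 0.014). In Drosha it stood at log2 -1.54 without passing in edgeR (adjusted p = 0.14), and DESeq2 called it there. A transcript on the opposite strand, 1700051A21Rik, covers 9.57% of its exon bases. Slc4a9, a chloride-bicarbonate exchanger, was at 1.57 and 1.12 CPM in WT, 1.49 and 0.996 under the Dgcr8 label and, among the other knockouts, 7.39 and 4.37 for Drosha, 15.4 and 14.9 for Dicer and 2.83 and 1.51 for Ago. Both Dicer libraries were above all others, and the Dgcr8-labelled libraries overlapped WT. It rose in the Dicer knockout (log2 3.51, SE 0.61, adjusted p = 0.0051), on 17 and 27 reads in WT. In Drosha it stood at log2 2.13 without passing in edgeR (adjusted p = 0.090). DESeq2 called it there and for the mean of the 4 knockouts.

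Among the 9 vitamin carriers, the reduced folate carrier Slc19a1 fell and the vitamin C transporter Slc23a1 rose in the Dicer knockout. Of all genes, 3.76% fell and 7.35% rose there. Slc19a1 was at 46.3 and 51.4 CPM in WT and 19.8 and 14.3 in the Dicer knockout (log2 -1.49, SE 0.37, adjusted p = 0.025). All 8 knockout libraries were below both WT libraries, which the naming rule asked for. Slc23a1 was at 2.49 and 2.20 CPM in WT, 2.05 and 14.1 under the Dgcr8 label and, among the other knockouts, 46.95 and 10.5 for Drosha, 44.7 and 22.6 for Dicer and 43.4 and 7.29 for Ago. The 2 libraries of the Dgcr8-labelled, Drosha and Ago groups lay far apart, and the first Dgcr8-labelled library was below both WT libraries. Slc23a1 rose in the Dicer knockout (log2 3.87, SE 1.05, adjusted p = 0.036) and did not pass in edgeR in the Drosha (log2 3.61, adjusted p = 0.086) or Ago (log2 3.43, adjusted p = 0.093) knockout. DESeq2 called it in Drosha. The thiamine transporter Slc19a2, the most abundant of the class, was at 224 and 205 CPM in WT and 233 and 125 in the Dicer knockout, with overlapping libraries.

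Of the 18 amino acid carriers, 1 fell in the Dicer knockout and 1 rose in the Ago knockout in edgeR. Of all genes, 3.76% fell in Dicer and 1.98% rose in Ago. DESeq2 called 4 and 5 of the carriers (17.1% and 8.49% of all genes) and limma-voom 0 and 3 (9.52% and 8.58%). Slc43a1 (ENSMUSG00000027075, chromosome 2 from 84838850 to 84863594), a transporter of large neutral amino acids, was at 19.1 and 14.5 CPM in WT, 29.6 and 33.5 under the Dgcr8 label and, among the other knockouts, 30.6 and 27.5 for Drosha, 24.1 and 13.8 for Dicer and 88.2 and 73.3 for Ago. The Ago libraries were above all others, the Drosha and Dgcr8-labelled libraries were between them and WT, and the Dicer libraries overlapped WT. Slc43a1 rose in the Ago knockout (log2 2.27, SE 0.33, adjusted p = 0.0096) and stood at log2 0.22 in the Dicer knockout (adjusted p = 0.72). Slc7a6, the light chain of an exchanger of arginine for glutamine, was at 246 and 221 CPM in WT, 174 and 64.6 under the Dgcr8 label and, among the other knockouts, 127 and 71.6 for Drosha, 93.9 and 72.3 for Dicer and 100.0 and 78.8 for Ago. All 8 knockout libraries were below both WT libraries, which the naming rule asked for. Slc7a6 fell in the Dicer knockout (log2 -1.49, SE 0.43, adjusted p = 0.048) and in the mean of the 4 knockouts (log2 -1.27, SE 0.31, adjusted p = 0.032). Its change in the Ago knockout was nearly as large without passing in edgeR (log2 -1.39, adjusted p = 0.10), and DESeq2 called it there. The test between the Ago and Dicer knockouts did not pass (log2 0.10, adjusted p = 0.95).

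Slc7a6os, which carries the prefix but encodes no transporter and lies beside Slc7a6 on chromosome 8, was at 50.3 and 66.2 CPM in WT and 24.1 and 22.1 in the Dicer knockout (log2 -1.33, adjusted p = 0.056). Slc7a4, a relative of the cationic amino acid transporters, fell in the mean of the 4 knockouts (log2 -1.35, SE 0.37, adjusted p = 0.049), from 15.8 and 13.4 CPM in WT. Its values lay between 2.64 and 8.18 CPM in the knockout libraries, all below WT, which the naming rule asked for. P2rx6 covers 13.3% of the exon bases of Slc7a4. The 2 abundant members, Slc38a4 and Slc38a1, did not pass in any knockout. Slc38a4 was at 1866 and 1233 CPM in WT and 2443 and 1456 in the Dicer knockout, and Slc38a1 at 478 and 286 and 844 and 431. For both genes the first library was the higher one in every group.

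Of the 9 carriers of lipids, choline and acetyl-CoA, Slc27a2 passed in the Ago knockout, where 1.98% of all genes rose. Slc27a2 (chromosome 2 from 126552407 to 126588243) was at 49.1 and 32.3 CPM in WT, 76.97 and 53.99 under the Dgcr8 label and, among the other knockouts, 61.7 and 49.4 for Drosha, 82.3 and 55.7 for Dicer and 221 and 118 for Ago. All 8 knockout libraries were above both WT libraries, the second Drosha library only just so, and the Ago libraries were above all others. Slc27a2 rose in the Ago knockout (log2 2.06, SE 0.38, adjusted p = 0.019) and stood at log2 0.77 in the Dicer knockout (adjusted p = 0.21). A gene on the opposite strand, Gm26697, covers 11.2% of the exon bases of Slc27a2. Of the 20 Slc35 genes, Slc35b4, which carries UDP-xylose and UDP-N-acetylglucosamine into the Golgi, rose in the Dicer knockout, from 27.6 and 22.98 CPM in WT to 85.8 and 65.1 (log2 1.59, SE 0.45, adjusted p = 0.041). In Drosha it stood at log2 1.31 without passing in edgeR (adjusted p = 0.13). DESeq2 called it there and for the mean of the 4 knockouts. An antisense gene, Gm13856, covers 10.01% of its exon bases. The Slc35 class median in the Dicer knockout was -0.04, and 7.35% of all genes rose there.

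In 5 further classes, the 7 cation-chloride cotransporters among them, 0 members passed in edgeR in any knockout against WT. Among the 11 carriers of organic ions and bile acids the member with the smallest p against the mean of the knockouts was Slc22a23, at 2.12 and 3.15 CPM in WT and 9.49 and 9.38 with Dicer knocked out (log2 1.82, adjusted p = 0.054), and the class median there was 0.96. Among the 3 carriers of peptides it was Slc15a1, which takes up small peptides with protons, at 84.4 and 52.8 CPM in WT and 286 and 135 in the Dicer knockout (log2 1.62, adjusted p = 0.071). Of the 2 phosphate carriers it was Slc20a1, at 316 and 210.1 and 547 and 386 (log2 0.83, adjusted p = 0.19), and of the 4 genes named after a transporter it was Slc7a6os. In the Dicer knockout 1 cation-chloride member, 3 of the organic ion carriers, 1 peptide carrier, 0 phosphate carriers and 1 of the genes named after a transporter had an unadjusted p under 0.05. DESeq2 called those numbers in each class too, and limma-voom called 1 cation-chloride member and 0 in the other 4 classes. In the Ago knockout 2 cation-chloride members, 3 organic ion carriers, 1 peptide carrier, 0 phosphate carriers and 1 gene named after a transporter had an unadjusted p under 0.05, DESeq2 called 1 cation-chloride member and 1 organic ion carrier, and limma-voom 1 organic ion carrier. In Drosha and under the Dgcr8 label neither tool called a member of these classes, and in Drosha 3 organic ion carriers and 1 gene named after a transporter, under the Dgcr8 label 1 organic ion carrier, had an unadjusted p under 0.05.

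**Figure D4:**
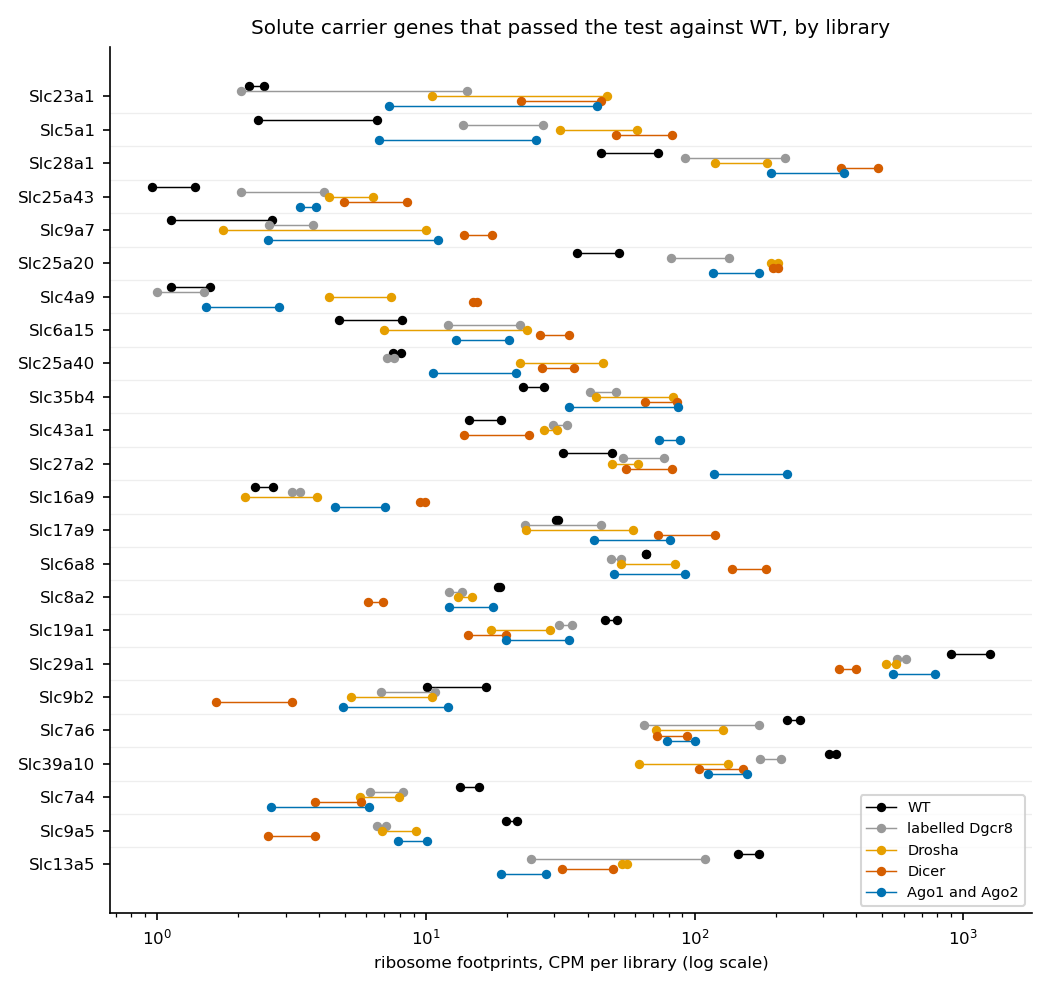
Footprints in every library, in CPM on a log axis, of 24 of the 25 solute carrier genes that passed the test in a knockout or in the mean of the 4 knockouts against WT, ordered by the latter change. Each line joins the 2 libraries of a group. For Slc25a20, Slc28a1 and Slc5a1 every knockout library lies to the right of WT, and for Slc29a1, Slc39a10, Slc9a5 and Slc13a5 every one lies to the left. The rule that named these 7 genes asked for this separation.

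The second question of the design is where the knockouts differ from each other. Of the 196 members, 5 differed in at least 1 of 6 pairs in edgeR, where 4.45% of all genes did. At an unadjusted p under 0.05 there were 74 members, where 35.4% of all genes passed. DESeq2 called 20 members (11.6% of all genes) and limma-voom 8 (7.42% of all genes). In the Dicer knockout 4 members were higher than in the Dgcr8-labelled libraries, where 3.19% of all genes were. These were Slc4a9 (log2 3.53, SE 0.62, adjusted p = 0.012), Slc6a8 (log2 1.66, SE 0.35, adjusted p = 0.026), Slc25a40 (log2 2.08, SE 0.45, adjusted p = 0.029) and Slc44a3 (log2 2.38, SE 0.55, adjusted p = 0.036), and in each both Dicer libraries were above both Dgcr8-labelled libraries. Slc44a3, a relative of choline transporters, was at 16.96 and 15.3 CPM in WT, 7.999 and 1.99 under the Dgcr8 label and, among the other knockouts, 7.91 and 5.24 for Drosha, 33.6 and 22.1 for Dicer and 21.9 and 14.1 for Ago. It did not pass against WT in either group, being lower in the Dgcr8-labelled libraries (log2 -1.58, adjusted p = 0.35) and higher in the Dicer knockout (log2 0.80, adjusted p = 0.35).

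In the Ago knockout 1 member, Slc43a1, was higher than in the Dicer knockout (log2 2.05, SE 0.33, adjusted p = 0.028), where 0.219% of all genes were. Both Ago libraries exceeded both Dicer libraries. Among the members with the smallest p in the other pairs, Slc38a5, a glutamine carrier, was at 107 and 32.3 CPM in the Ago knockout and 18.03 and 2.99 in the Dgcr8-labelled libraries (log2 2.64, adjusted p = 0.17), and Slc35d2, a nucleotide sugar carrier, at 21.4 and 13.8 CPM for Dicer and 6.86 and 1.75 for Drosha (log2 2.08, adjusted p = 0.44). Neither pair of values passed the test. Leaving out the first Dicer library ended all 5 differences and leaving out the second left 1. Of the 5, 3 remained when WT library 1 was left out, and 2 when WT library 2 was, or the first or the second Dgcr8-labelled library.

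Other transport genes were counted beside the members. Of 27 ABC transporters, which pump with ATP, 5 rose and 1 fell in the Dicer knockout, 1 rose in Drosha, and 2 rose and 1 fell in Ago. Of all genes 7.35% rose and 3.76% fell in Dicer, 2.48% rose in Drosha, and 1.98% rose and 0.902% fell in Ago. DESeq2 called 7, 5 and 4 of them in Dicer, Drosha and Ago, and limma-voom 4, 1 and 2. Abca1, which exports cholesterol, was at 94.2 and 68.03 CPM in WT and 594 and 328 in the Dicer knockout. Of 29 P-type pumps and their subunits 3 rose and 3 fell in the Dicer knockout, among them the sodium pump subunit Atp1b2 (log2 -2.78, adjusted p = 0.0036), which fell. DESeq2 called 7 of the 29 there and limma-voom 6. Of 18 subunits of the vacuolar proton pump 0 passed in the Dicer knockout in edgeR, with 2 at an unadjusted p under 0.05, 1 in DESeq2 and 0 in limma-voom. Of 27 relatives of solute carriers under other names 0 passed there in edgeR, with 4 at an unadjusted p under 0.05, 1 in DESeq2 and 0 in limma-voom. Of 6 partners and regulators, 1 rose in the Dicer knockout, Stk39, a kinase of the pathway that controls cation-chloride cotransporters (log2 2.72). DESeq2 and limma-voom called 1 of the 6 as well.

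Of the 13 solute carrier genes set aside by the choice of members, 4 fell and 0 rose in the Dicer knockout, with a median of -0.98, where 3.76% of all genes fell and 7.35% rose. DESeq2 called 5 of the 13 (17.1% of all genes) and limma-voom 4 (9.52% of all genes). The 4 were the glucose transporters Slc2a1 and Slc2a3 and the monocarboxylate transporters Slc16a1 and Slc16a3. The 196 members had a median of 0.02 in the same comparison and all genes one of -0.00. The low median of the 13 was not limited to Dicer, at -0.94 under the Dgcr8 label, -1.13 in Drosha and -0.61 in Ago. There 0, 1 and 0 of them fell in edgeR, where 0.966% of all genes fell in Drosha. At an unadjusted p under 0.05 there were 6, 6 and 4 of the 13, where 9.81%, 19.2% and 19.7% of all genes passed.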

How the data were processed

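The authors deposited 1 table of footprint counts per gene, with 10 libraries in 5 groups of 2. Per the labels' protocols, cells were treated with cycloheximide, lysates were digested with RNase I, monosomes were collected on spin columns, rRNA was depleted and small RNA libraries with Drosophila spike-ins were made. Trimmomatic, Bowtie2, GRCm38 (mm10) and BDGP6 (dm6) are named in the submitters' processing notes. The counting tool, annotation and use of strand are not given in the sources used here, so reads of overlapping or antisense genes cannot be told apart. Spike-in counts and matched mRNA were not used here. Groups came from the labels. The table's gene column held 16 symbols turned into dates, which were restored from the gene identifiers.

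The deposited counts were tested with edgeR 4.0.16 (R 4.3.3): TMM scaling, filterByExpr (10978 of 11011 genes kept), 1 quasi-likelihood fit over all 10 libraries, and 2-sided tests with Benjamini-Hochberg adjustment over all genes within each comparison, at a threshold of 0.05. The fit had 5 residual degrees of freedom and a biological coefficient of variation of 0.306. The procedure was tested on simulated counts with 200 genes changed 8-fold in 1 knockout. It recovered 167 to 187 of the 200, with 12 to 17 false calls. Smaller changes were not simulated. WT levels of different genes are CPM divided by the longest coding sequence in GENCODE M21. The alternatives were RLE and total-count scaling, other filters, DESeq2 1.42.0, limma-voom (limma 3.58.1), a replicate block, only the libraries of the 2 groups compared, each library left out, and, chosen after seeing the data, both Dgcr8-labelled libraries left out.

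Members named are, for each comparison with WT, up to 8 a direction with the smallest adjusted p, a mean of 10 CPM or more in 1 of the groups and libraries that do not overlap; up to 3 a direction between knockouts; the 4 with the smallest p where fewer than 3 passed; the 12 highest in WT; and, in each transport class, the member with the smallest p against the mean of the 4 knockouts. The members, the classes, the marker and transport lists and the rule were chosen with earlier results of these data known. Some genes that the rule names are not reported here.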

Additional observations from a re-analysis of the deposited data

Results flagged for a closer look

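For 5 members, the change against WT differed between 2 knockouts in the test of that difference (edgeR, adjusted p under 0.05), where 4.45% of all genes differed in at least 1 of 6 pairs. The change of Slc4a9, an anion exchanger, was higher in the Dicer knockout than under the Dgcr8 label by 3.53 on the log2 scale. For the creatine transporter Slc6a8 the same difference was 1.66, for the mitochondrial carrier Slc25a40 it was 2.08, and for Slc44a3, a relative of choline transporters, it was 2.38. The change of the amino acid transporter Slc43a1 was higher in the Ago than in the Dicer knockout by 2.05. In the Dgcr8-labelled libraries the targeted gene went against its label, which touches the first 4 of these differences. In the Ago knockout Ago2 fell but Ago1 did not (log2 0.37, adjusted p = 0.67), which touches the fifth.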

How the results depend on the processing

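Over the 7 main results and their alternatives, 68 values stayed within the limits set for a like result and 43 moved. For the members named with a call, 566 alternative values kept direction and call, 126 kept direction but lost the call, and 0 reversed. The main counts of members called were 0 under the Dgcr8 label, 4 in Drosha, 22 in Dicer, 5 in Ago, 11 for the mean of the knockouts and 5 between knockouts. DESeq2 gave 3, 18, 37, 20, 30 and 20. Limma-voom gave 2 in Drosha, 14 in Ago, 19 for the mean and 8 between knockouts. Fits to the libraries of the 2 groups alone gave 9 in Drosha, 62 in Dicer and 10 in Ago. Without both Dgcr8-labelled libraries, chosen after seeing the data, the mean gave 23. Leaving out each library in turn gave 0 to 1 under the Dgcr8 label, 0 to 6 in Drosha, 1 to 31 in Dicer, 0 to 7 in Ago, 0 to 22 for the mean and 0 to 8 between knockouts. A group left with 1 library was assumed to vary like the others. The median WT level was 16.7 CPM per kb of coding sequence and 4.56 per kb of all exons. The causes of these moves were not tested. Apart from DESeq2 and limma-voom, the share of all genes called under these alternatives is not given here. Counts of members under those alternatives therefore do not set solute carriers apart. Other scalings moved the all-gene median by -0.07 to 0.04 (log2).

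With the replicate block, the counts were 1 under the Dgcr8 label, 16 in Drosha, 39 in Dicer, 18 in Ago, 30 for the mean and 18 between knockouts. The share of all genes called with the block is not given here either. Deviations from the group means correlated at 0.06 to 0.29 between libraries of the same number, above 0 in every pair of groups. By the labels these libraries share only a number, and the labels do not say what a number marks. The Ago libraries, numbered 1 and 2 in the sample titles, are numbered 2 and 3 in the names of the table's columns, so their numbers may not match those of the other groups.

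Depth limits the precision of members at a few CPM, since the second Dicer library held 1754710 counts. Every comparison with WT rests on the same 2 WT libraries.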

Other observations

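The 7-base miR-290 and miR-302 match can also lie in copies of the B1 repeat, in which it is followed by a fixed stretch. Only exact copies of the stretch were counted, so diverged copies of the repeat are left out. That stretch followed 3 of 36 matches in members (8.33%), in Slc17a5, Slc25a32 and Slc5a4b, against 128 of 2108 over all tested genes (6.07%). None of these 3 members passed in a knockout, and the 4 sites printed above do not have it.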
